A study of Homo sapiens with 6 samples.

Results

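The deposited table of RKO cells in fasting medium held 59 genes of developmental transcription factor families among its 3511 genes. They were chosen by symbol alone, by a pattern that covers 22 families or family names, among them HOX, PAX, POU, NFI, NFAT, nuclear receptors named NR, RAR or RXR, KLF, SOX, FOX, GATA, ETS, TCF or LEF, TBX, RUNX, ID, HES and HEY, TEAD, SMAD, C/EBP, MEF2 and IRX. RKO is an established human colorectal carcinoma cell line, wild type per the labels. It was kept for 48 h in fasting medium with 1% serum and 1 g/L glucose (3 libraries) or in control medium with 10% serum and 4.5 g/L glucose (3 libraries). Serum and glucose were lowered together, so their parts cannot be told apart. The drug treatments named in the series' design were not analysed here. The labels do not tell if the 3 libraries of a medium are separate cultures. The spread behind each p-value is therefore that between libraries and may be technical.

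The table holds only genes that the authors had called, 11.8% of the 29845 genes they tested, so each of the 59 members differed between the media by selection. GENCODE annotation names 293 protein-coding genes that fit the pattern. The other 234 were not listed, and no value for them was used here. The member nearest to the authors' threshold of 0.05 was FOXO6, with an adjusted p of 0.0474 in the authors' deposited table. Members just outside the threshold have no value here.

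These families set cell identity in embryos and keep working in adult tissue and tumours. Homeodomain proteins such as HOX, PAX and POU factors bind DNA and pattern the body axis and organs. Nuclear receptors are switched by ligands such as retinoids and steroids, or, for orphan members, largely by how much of them is made. Many HES, HEY and ID proteins are negative regulators downstream of Notch and BMP signals, SMAD proteins carry TGF-beta and BMP signals, and KLF factors govern proliferation and differentiation of the gut lining.

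Values are read counts divided by a size factor for each library, called normalized counts below, and are given in the order of replicates 1 to 3. Reads in the listed genes ranged from 4017618 to 5602177 per library, and the total depth is unknown. Log2 differences are fasting minus control, taken after adding 1 to each value, and were tested with limma over the whole table, with Benjamini-Hochberg adjustment over all 29845 genes and a threshold of 0.05. RNA came from whole cultures, so fewer cells that express a gene and less RNA per cell cannot be told apart. Of 12 colon epithelium markers the table lists KRT18 alone, which was higher in fasting medium (log2 difference 1.72), so the labelled cell type could not be checked further. Of 9 fibroblast and 6 endothelial markers none was listed, and of 7 immune markers CD14 was, at a mean of 8.08 normalized counts in fasting medium against 0.81 in control medium. The part of such cells in the results was not tested.

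Fasting replicate 3 stood apart from the other fasting libraries by transcript length. Among the 52 members that averaged 50 or more normalized counts in either medium, its difference from the mean of fasting replicates 1 and 2 had a Spearman correlation of -0.70 with transcript length (1251 to 9487 bases, longest protein-coding transcript in GENCODE). This describes genes that share the same libraries and is not a test. The difference ran from -0.87 for NR1D2 to 0.88 for HES1 on the log2 scale, and 24 of the 52 members lay above 0. Its part in the results was not tested, and values without that library are given for some members.

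**Figure D1:**
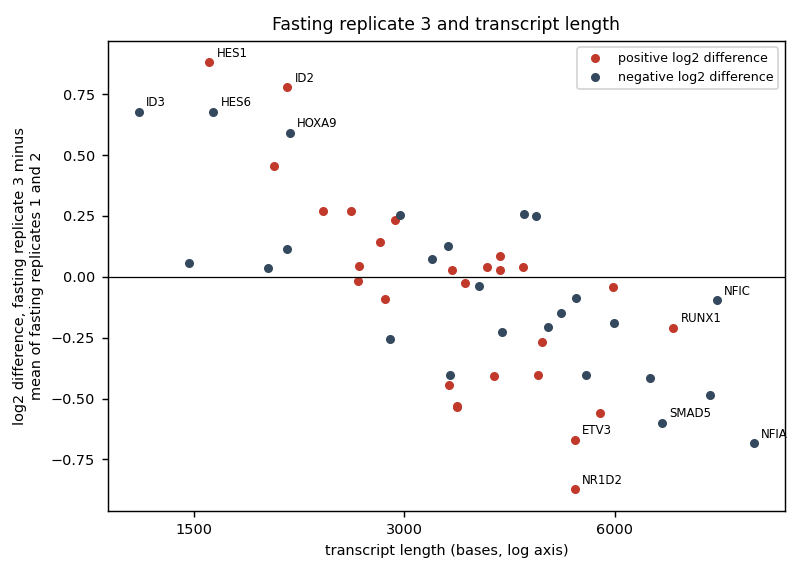
Each point is one of the 52 members that averaged 50 or more normalized counts in either medium. The x axis is transcript length in bases on a log axis, and the y axis is the log2 difference between fasting replicate 3 and the mean of fasting replicates 1 and 2. Short transcripts such as HES1 (0.88) lie above 0 and long ones such as NFIA (-0.68) below, among genes with positive and negative differences between the media alike.

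Of the 59 members 28 were higher in fasting medium and 30 lower, and HOXA9 did not pass the test. Among all 3511 listed genes 49.7% were higher and 44.6% lower, 94.3% in all. The members' shares, 47.5% and 50.8%, come from a table selected on this contrast and are no result of their own. Counts from the further gene lists below share this limit, and those lists were chosen with earlier results of these data known. Of all genes the authors tested, 11.8% were listed. The median absolute log2 difference was 1.03 over the members and 0.97 over all listed genes. Signed medians, -0.59 and 0.53, say little in a table selected for differences in both directions. Rises of at least 2-fold numbered 15 members (25.4%, against 26.6% of the listed genes) and falls of that size 16 (27.1%, against 19.8%). The values of the media did not overlap in any of the 59 members, as in 100% of the listed genes. Without fasting replicate 3, 28 were higher and 31 lower. With edgeR and libraries scaled by their summed reads in the table (total-read scaling), which moves all differences by a median of -0.47, 13 members were higher (29.5% of those called, against 48.3%) and 31 lower, but no member changed direction. The 15 rises that missed the threshold under that scaling included RUNX1, RXRB, KLF5, KLF6, KLF10, KLF11, HOXB9, ELF1, ETV3, ETV5, SMAD7, NR1D1, HES1 and POU5F1B, with log2 differences of 0.08 to 1.42. RLE scaling moved differences by 0.20, and under it 7 falls missed the threshold, those of POU2F2, HOXD8, HES6, NFIX, SMAD5, NFATC1 and FOXO6, with -0.90 to -0.44.

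**Figure D2:**
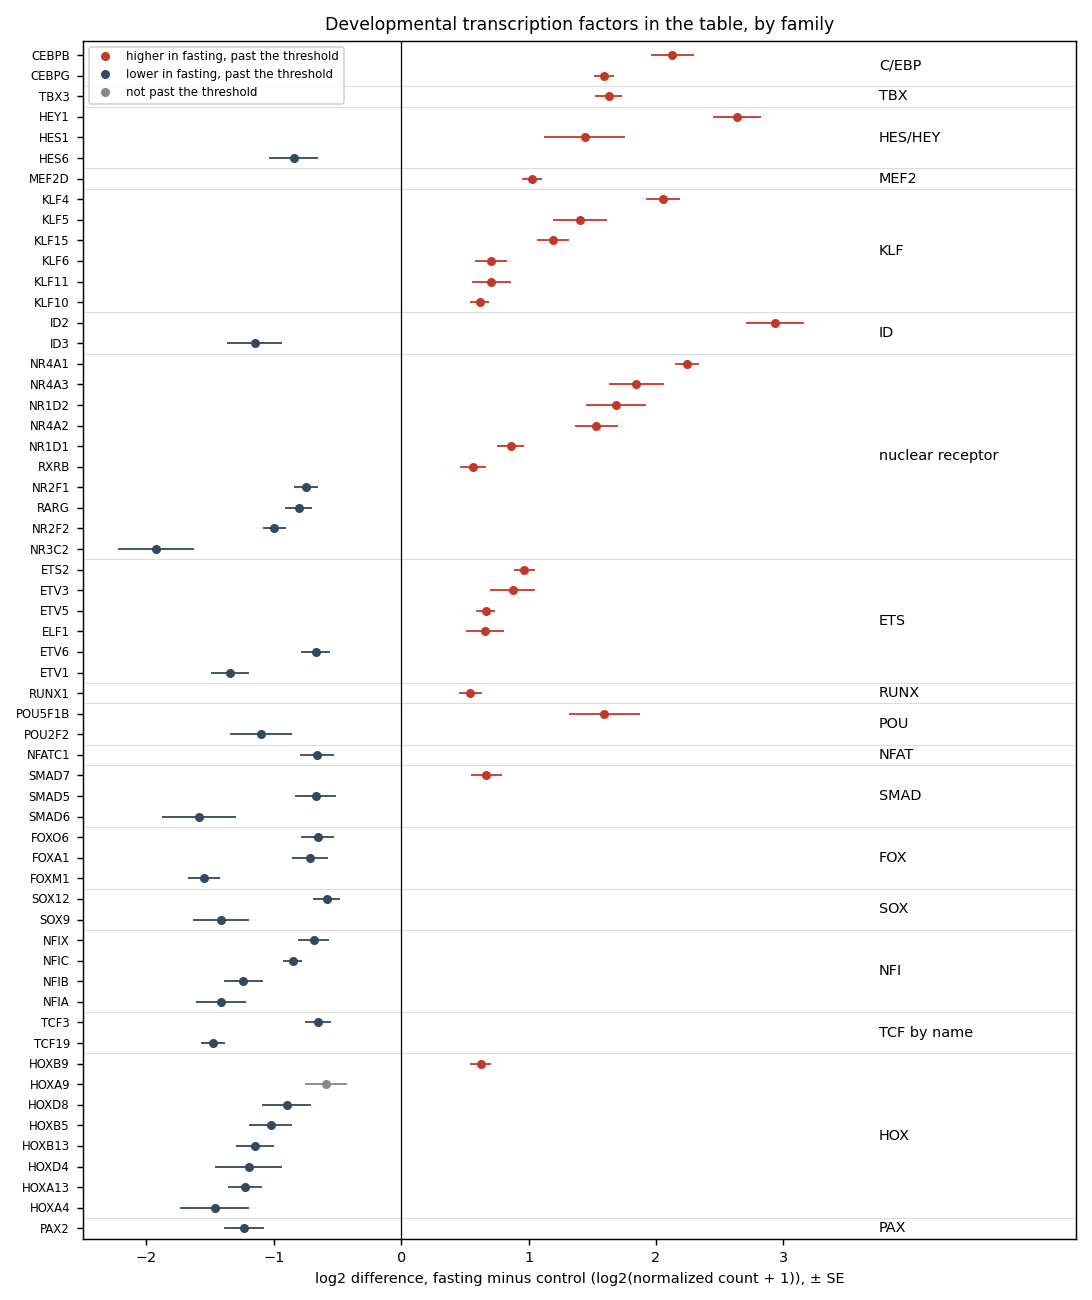
Each row is one of 58 members, grouped by family, and the x axis is the log2 difference between fasting and control medium with its SE from limma. KLF and C/EBP factors all lie above 0, NFI and FOX factors all lie below, and ID, HES/HEY, nuclear receptor and HOX genes lie on both sides, from ID2 (2.93) to NR3C2 (-1.92).

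Nuclear receptors were the family with the most members. Of the 10 listed, 6 were higher in fasting medium and 4 lower, against 49.7% and 44.6% of all listed genes. The orphan receptors NR4A1, NR4A2 and NR4A3, early-response genes in many cells, rose together. NR4A1 (ENSG00000123358) had 736, 768 and 767 normalized counts in the fasting libraries, against 167, 161 and 151 in the control libraries. The fasting values all lay far above the control values, and the libraries of each medium were close together (log2 difference 2.24, SE 0.09, limma adjusted p = 1.61e-05). NR4A3 (ENSG00000119508) had 176, 146 and 109 normalized counts in the fasting libraries, against 33.5, 46.9 and 36.3 in the control libraries, with fasting replicate 3 the lowest of its group (log2 difference 1.85, SE 0.22, limma adjusted p = 0.00100). Without that library the log2 difference was 2.03. NR4A2 (ENSG00000153234) had 131, 124 and 93.5 normalized counts in the fasting libraries, against 41.4, 39.8 and 36.3 in the control libraries (log2 difference 1.53, SE 0.17, limma adjusted p = 7.92e-04).

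The circadian repressors REV-ERB alpha and beta, which bind haem, were higher as well. NR1D2 (ENSG00000174738), which encodes REV-ERB beta, had 374, 367 and 202 normalized counts in the fasting libraries, against 101, 91.6 and 88.7 in the control libraries. Fasting replicate 3 was the low one of its group, and the log2 difference was 1.69 ± 0.24 (SE, limma adjusted p = 0.00223) with it and 1.98 without it. NR1D1 (ENSG00000126368) averaged 318 ± 19.3 normalized counts in fasting medium and 175 ± 9.87 in control medium (SD, n = 3 each, log2 difference 0.86, SE 0.11, limma adjusted p = 0.00130). With total-read scaling the call of NR1D1 was lost (log2 difference 0.38). Its exons overlap those of THRA, the thyroid hormone receptor alpha gene, on the opposite strand, and the labels do not state if counting was by strand. THRA had 529, 525 and 519.8 normalized counts in the fasting libraries, against 1085, 1076 and 1053 in the control libraries, a fall (log2 difference -1.03, SE 0.08, limma adjusted p = 1.38e-04), so this pair moved in opposite directions. RXRB, a shared partner of many receptors, averaged 699.6 ± 68.6 normalized counts in fasting medium and 473 ± 20.0 in control medium (SD, n = 3 each, log2 difference 0.56, SE 0.10, limma adjusted p = 0.00769). Its call was lost without control replicate 2 (limma adjusted p = 0.0530, range over all alternatives 5.44e-05 to 1.00).

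Receptors that fell were NR3C2, NR2F2, NR2F1 and RARG. The mineralocorticoid receptor gene NR3C2 (ENSG00000151623) had few reads, 2.54, 2.09 and 1.38 normalized counts in the fasting libraries, against 8.88, 12.8 and 9.45 in the control libraries. Its log2 difference was the lowest of all members with a pseudocount of 1 (log2 difference -1.92, SE 0.30, limma adjusted p = 0.00344) but -0.76 with a pseudocount of 10, against -1.53 for FOXM1. NR2F2 (ENSG00000185551), which encodes COUP-TF II, had 340.2, 321 and 311 normalized counts in the fasting libraries, against 628, 667 and 645 in the control libraries (log2 difference -0.995, SE 0.09, limma adjusted p = 2.90e-04). Its relative NR2F1 fell less (log2 difference -0.75, SE 0.09, limma adjusted p = 0.00136), and so did the retinoic acid receptor RARG (log2 difference -0.80, SE 0.11, limma adjusted p = 0.00176). In neither COUP-TF gene did a fasting value reach a control value, but the groups did not overlap in 100% of the listed genes. Of 18 receptors outside the naming pattern 3 were listed. HNF4G, a hepatocyte nuclear factor 4 of gut and other tissues, rose (log2 difference 0.94, SE 0.15, limma adjusted p = 0.00404), while THRA and VDR fell. Coregulators and retinoid genes had 2 of 21 listed, the coactivator NCOA7 (log2 difference 0.93, SE 0.16, limma adjusted p = 0.00620) and CYP26B1, which degrades retinoic acid (log2 difference -1.21, SE 0.16, limma adjusted p = 0.00180). The calls of HNF4G and NCOA7 were lost with total-read scaling, with log2 differences of 0.46 and 0.50. The call of VDR was lost without control replicate 2 or 3 (limma adjusted p = 0.0643 to 0.0813, range over all alternatives 1.18e-04 to 0.0813).

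**Figure D3:**
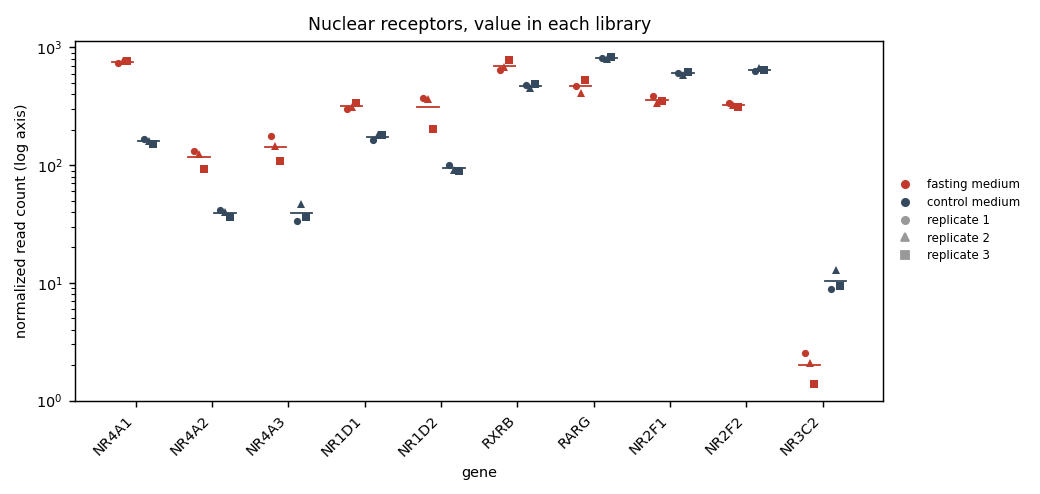
Normalized read counts (log axis) of the 10 nuclear receptor genes, one symbol per library, with a bar at each group mean. The 3 NR4A genes, NR1D1, NR1D2 and RXRB lie higher in fasting medium and RARG, NR2F1, NR2F2 and NR3C2 lower. NR3C2 lies far below the others, between 1.38 and 2.54 in fasting medium and between 8.88 and 12.8 in control medium.

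All 6 listed KLF genes, of 18 annotated, were higher in fasting medium (median absolute log2 difference 0.95, against 0.97 over all listed genes), though with total-read scaling only KLF4 and KLF15 passed. Higher in fasting medium were also 49.7% of all listed genes. KLF4 (ENSG00000136826), a differentiation factor of the gut epithelium, had 305, 281 and 275 normalized counts in the fasting libraries, against 73.0, 73.9 and 58.9 in the control libraries. The groups were tight and far apart (log2 difference 2.06, SE 0.13, limma adjusted p = 7.90e-05). KLF5 (ENSG00000102554), active in dividing crypt cells, had 277, 232 and 175 normalized counts in the fasting libraries, against 107, 75.3 and 74.1 in the control libraries, with the lowest fasting value in replicate 3 (log2 difference 1.40, SE 0.21, limma adjusted p = 0.00329). Without that library the log2 difference was 1.58. KLF15, a metabolic regulator induced by glucocorticoids, averaged 269.7 ± 22.3 normalized counts in fasting medium and 118 ± 10.3 in control medium (SD, n = 3 each, log2 difference 1.19, SE 0.12, limma adjusted p = 5.82e-04). KLF6, KLF11 and KLF10, of which the last pair are known as TGF-beta-inducible early genes, had smaller differences of 0.71 ± 0.12, 0.71 ± 0.15 and 0.62 ± 0.08 (SE, limma adjusted p = 0.00678, 0.0188 and 0.00134). The call of KLF11 was lost without fasting replicate 1 or 2, or control replicate 2 or 3 (limma adjusted p = 0.0817 to 0.102, range over all alternatives 5.62e-05 to 1.00).

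RefSeq promoter windows of the members (GRCh38.p14, 250 bases before to 50 after the start) were searched on both strands for 16 motifs. Those of KLF genes with an E-box are shown, up to the start. The E-box CACGTG, bound by bHLH proteins such as MYC and clock factors, was present in 4 of the 5 KLF windows at hand. It was in 8 of the 47 member windows (17.0%), these 4 KLF windows included, and in 7.26% of 35116 promoter windows. It was singled out of 16 motifs after the matches were seen, and a match is not evidence of binding. In the windows below, of KLF4 (chr9:107489770-107490019, minus strand), KLF6 (chr10:3785210-3785459, minus strand), KLF11 (chr2:10043579-10043828, plus strand) and KLF15 (chr3:126357409-126357658, minus strand), capitals mark that motif. It begins 157, 97, 182 and 46 bases before the start used, in that order. Only the first window found for a symbol was used, and genes can have other starts. A motif before the start used, as in KLF11, can therefore lie inside transcripts from another start. Which start RKO cells use was not tested.
KLF4: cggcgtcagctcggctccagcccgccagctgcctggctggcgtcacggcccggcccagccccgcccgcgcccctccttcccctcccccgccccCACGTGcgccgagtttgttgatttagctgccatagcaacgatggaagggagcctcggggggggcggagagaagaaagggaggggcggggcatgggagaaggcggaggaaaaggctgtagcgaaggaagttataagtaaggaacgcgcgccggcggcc
KLF6: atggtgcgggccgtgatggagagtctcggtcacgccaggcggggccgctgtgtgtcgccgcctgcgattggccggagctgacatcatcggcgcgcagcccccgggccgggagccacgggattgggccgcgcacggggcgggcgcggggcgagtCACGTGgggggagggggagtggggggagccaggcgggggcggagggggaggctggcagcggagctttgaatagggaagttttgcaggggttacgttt
KLF11: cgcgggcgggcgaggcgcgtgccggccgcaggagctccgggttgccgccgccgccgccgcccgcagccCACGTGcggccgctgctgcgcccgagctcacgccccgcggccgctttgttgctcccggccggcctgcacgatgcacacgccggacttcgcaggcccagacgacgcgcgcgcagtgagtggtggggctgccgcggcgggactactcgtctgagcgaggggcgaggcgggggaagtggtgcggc
KLF15: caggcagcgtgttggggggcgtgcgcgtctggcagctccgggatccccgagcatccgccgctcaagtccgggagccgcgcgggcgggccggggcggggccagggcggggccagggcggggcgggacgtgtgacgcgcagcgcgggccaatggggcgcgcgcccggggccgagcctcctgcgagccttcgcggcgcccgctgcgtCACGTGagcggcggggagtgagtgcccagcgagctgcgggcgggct

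Other motifs stood at a wide range of shares, as a description without a test. Member shares rest on the first window found per gene, and other starts of a gene were not searched. No motif share, that of the E-box included, was adjusted for base composition. The content of G and C ran from 33.0% (ELF1) to 86.3% (NFIC) over member windows and was not computed for all windows. The GC box GGGCGG, a site of SP and KLF proteins, stood in 66.0% of member windows and 44.95% of all windows, and the CACCC box (CACCC), typical of KLF sites, in 51.1% of member windows and 59.9% of all windows. The cAMP response half-site TGACG, which lies within the full element, was found in 29.8% of member windows and 24.6% of all windows, while the full element TGACGTCA, the C/EBP-ATF element TGATGNAA and the E2F site TTTGGCGC were in none of the member windows. Of all windows 1.85%, 3.62% and 0.652% held these, in that order. The BMP response motif GGCGCC was found in 25.5% of member windows and 19.2% of all windows, and the TEAD site GGAATG in 12.8% of member windows and 14.0% of all windows. For the nuclear receptor half-site AGGTCA the share was 4.26% of member windows and 13.8% of all windows, and for the heat shock motif GAANNTTC 4.26% of member windows and 6.77% of all windows. The TATA box TATAAA was present in 6.38% of member windows and 11.5% of all windows, the cell cycle motif CHR (TTTGAA) in 8.51% of member windows and 15.2% of all windows and the serum response element in 2.13% of member windows and 1.29% of all windows.

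The related SP and EGR zinc finger genes had 5 of 13 listed, 3 higher, 1 lower and SP4 not past the threshold (log2 difference -0.79, SE 0.25, limma adjusted p = 0.125). SP4 passed without fasting replicate 1 or 3 (limma adjusted p = 0.00386 to 0.0358, range over all alternatives 0.00386 to 0.437). EGR1, an early-response activator, averaged 8009 ± 147 normalized counts in fasting medium and 2983 ± 121 in control medium (SD, n = 3 each, log2 difference 1.43, SE 0.08, limma adjusted p = 3.49e-05), and SP8 fell (log2 difference -2.09, SE 0.17, limma adjusted p = 1.79e-04).

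NFI factors, which bind DNA as dimers and guide differentiation of brain, lung and other organs, moved the opposite way. All 4 genes of the family were listed and all 4 fell (median log2 difference -1.05), as did 44.6% of all listed genes. NFIA (ENSG00000162599) had 253, 298 and 171 normalized counts in the fasting libraries, against 633, 664 and 585 in the control libraries (log2 difference -1.42, SE 0.19, limma adjusted p = 0.00207). NFIB (ENSG00000147862) had 330.1, 378 and 252 normalized counts in the fasting libraries, against 788, 769 and 684 in the control libraries (log2 difference -1.24, SE 0.15, limma adjusted p = 0.00134). In both, fasting replicate 3 was the lowest library, and without it the differences were -1.19 and -1.08. NFIC was the most abundant by count, 2142, 2027 and 1949.8 normalized counts in the fasting libraries, against 3599.8, 3807 and 3638 in the control libraries (log2 difference -0.85, SE 0.08, limma adjusted p = 3.24e-04). NFIX fell too (log2 difference -0.69, SE 0.12, limma adjusted p = 0.00683), which missed the threshold with RLE scaling at -0.47.

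**Figure D4:**
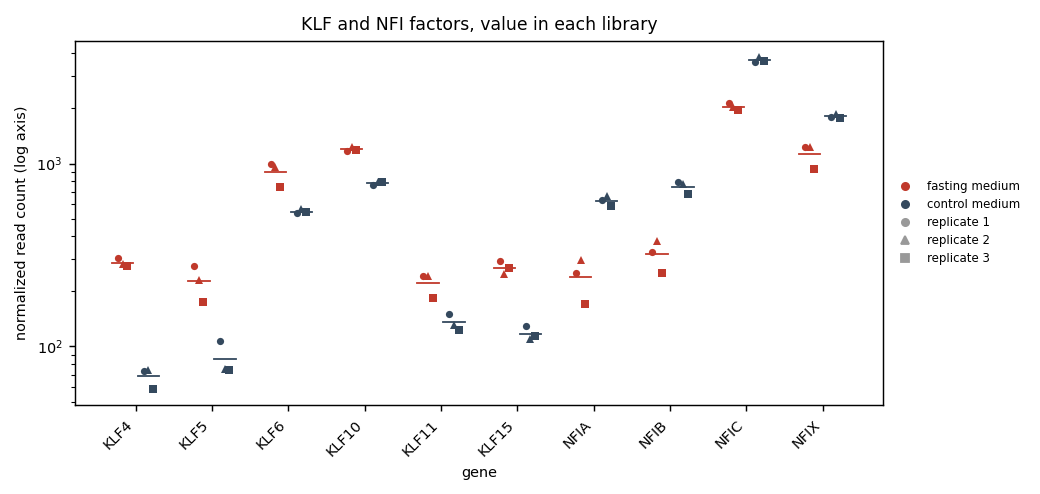
Normalized read counts (log axis) of the 6 listed KLF and the 4 NFI genes, one symbol per library, with a bar at each group mean. The fasting libraries lie above the control libraries in all 6 KLF genes and below them in all 4 NFI genes. The media likewise did not overlap in 100% of the listed genes.

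Both listed C/EBP genes rose. CEBPB (ENSG00000172216), an activator in stress, inflammation and fat cell differentiation, had 3865, 4046 and 5421 normalized counts in the fasting libraries, against 1055, 1166 and 821 in the control libraries. Fasting replicate 3 was the highest, and all fasting values lay far above the controls (log2 difference 2.13, SE 0.17, limma adjusted p = 1.79e-04). Without that library the log2 difference was 1.98. CEBPG (ENSG00000153879), a dimer partner of ATF4, had 2403, 2305 and 2497 normalized counts in the fasting libraries, against 838, 798 and 753 in the control libraries (log2 difference 1.59, SE 0.08, limma adjusted p = 3.13e-05). Of 14 other leucine zipper factors that can pair with C/EBP proteins or share their sites, 6 were listed and all 6 rose (median 1.81). That list was chosen with earlier results of these data known, and 49.7% of all listed genes were higher. ATF3 averaged 768 ± 72.1 normalized counts in fasting medium and 42.9 ± 3.49 in control medium (SD, n = 3 each, log2 difference 4.13, SE 0.12, limma adjusted p = 3.79e-06) and DDIT3, also called CHOP, 678 ± 256 normalized counts in fasting medium and 42.3 ± 0.779 in control medium (SD, n = 3 each, log2 difference 3.91, SE 0.23, limma adjusted p = 5.60e-05). The call of BATF2 was lost with total-read scaling and without fasting replicate 1, or control replicate 1 or 3 (limma adjusted p = 0.0702 to 0.109, range over all alternatives 0.00322 to 0.214).

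ID proteins lack a DNA-binding part and hold E proteins such as TCF3 in inactive pairs. The listed ID genes moved in opposite directions. ID2 (ENSG00000115738) had the largest rise of all members, 159.9, 175 and 287 normalized counts in the fasting libraries, against 26.6, 25.6 and 24.0 in the control libraries. The groups did not overlap, as in 100% of the listed genes, and fasting replicate 3 was the highest (log2 difference 2.93, SE 0.23, limma adjusted p = 1.63e-04). Without that library the log2 difference was 2.67. ID3 (ENSG00000117318) had 82.5, 94.1 and 142 normalized counts in the fasting libraries, against 209, 212 and 276 in the control libraries, again with the highest fasting value in replicate 3 (log2 difference -1.15, SE 0.22, limma adjusted p = 0.00970). Without fasting replicate 3 the log2 difference was -1.38, and the call was lost without control replicate 3 (limma adjusted p = 0.0574, range over all alternatives 2.82e-06 to 0.0574). TCF3 (ENSG00000071564), which encodes the E proteins E12 and E47, fell, with 1763, 1783 and 2118 normalized counts in the fasting libraries, against 2822, 2887 and 3173 in the control libraries (log2 difference -0.65, SE 0.10, limma adjusted p = 0.00354). It is not the Wnt effector TCF7L1, which has shared this name.

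Among HES and HEY genes, of which many but not all are repressors that Notch signalling induces, HEY1 and HES1 rose and HES6 fell. HEY1 (ENSG00000164683) had 171, 116 and 171 normalized counts in the fasting libraries, against 22.7, 22.0 and 25.4 in the control libraries. The control libraries were nearly alike and every fasting value was several times higher (log2 difference 2.64, SE 0.19, limma adjusted p = 1.22e-04). HES1 (ENSG00000114315) had 31.7, 48.1 and 72.9 normalized counts in the fasting libraries, against 20.7, 18.5 and 13.1 in the control libraries, with fasting values that spread widely (log2 difference 1.44, SE 0.32, limma adjusted p = 0.0216). Its call was lost with total-read scaling (log2 difference 1.07) and without fasting replicate 2, or control replicate 2 or 3 (limma adjusted p = 0.0665 to 0.108, range over all alternatives 6.55e-04 to 0.108). HES6 (ENSG00000144485), known as an inhibitor of HES1, had 698, 705 and 1123 normalized counts in the fasting libraries, against 1564, 1574 and 1302 in the control libraries, where fasting replicate 3 was close to the controls (log2 difference -0.84, SE 0.19, limma adjusted p = 0.0229). Its call was lost without fasting replicate 1 or 2, or control replicate 1, 2 or 3 (limma adjusted p = 0.0535 to 0.106, range over all alternatives 1.12e-07 to 0.106). Without fasting replicate 3 the differences were 1.15 for HES1 and -1.07 for HES6.

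The HES1 promoter window (chr3:194135898-194136147, plus strand, GRCh38.p14) is shown because HES1 is the classic target of RBPJ, the DNA-binding partner of the Notch intracellular domain. Capitals mark the motif GTGGGAA, 85 bases before the start, which stood on either strand in 2 of 47 member windows (HES1 and ETS2, 4.26%) and in 6.25% of all windows. Here too a match is not evidence of binding.
HES1: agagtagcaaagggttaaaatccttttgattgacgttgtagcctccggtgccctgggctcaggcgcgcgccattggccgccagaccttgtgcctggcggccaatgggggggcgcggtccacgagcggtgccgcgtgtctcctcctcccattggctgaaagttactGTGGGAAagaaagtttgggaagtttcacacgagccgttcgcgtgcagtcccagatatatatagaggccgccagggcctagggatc

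Other genes of the Notch pathway went both ways, 4 higher and 6 lower among 10 of 29 (median -0.73). The gamma-secretase subunit NCSTN rose (log2 difference 0.89, SE 0.08, limma adjusted p = 3.31e-04), as did the ligand DLL1 (log2 difference 0.76, SE 0.09, limma adjusted p = 0.00117). ADAM17 was higher too, while JAG2, LFNG, DTX4 and the coactivators MAML1, MAML2 and MAML3 fell. The call of ADAM17 was lost without fasting replicate 1 or 2, or control replicate 1, 2 or 3 (limma adjusted p = 0.117 to 0.176, range over all alternatives 3.33e-08 to 1.00), that of MAML2 without control replicate 2 or 3 (limma adjusted p = 0.0634 to 0.0836, range over all alternatives 4.71e-05 to 0.0836) and that of MAML3 without fasting replicate 2, or control replicate 1, 2 or 3 (limma adjusted p = 0.0781 to 0.137, range over all alternatives 0.00134 to 0.137). With total-read scaling 1 of the 4 rises passed, that of NCSTN. Other bHLH factors had 7 of 30 listed, 6 higher and MXD3 lower, with the smallest adjusted p for MXD1, a MAX partner that opposes MYC (log2 difference 2.02, SE 0.12, limma adjusted p = 5.80e-05), and BHLHE40, a clock-linked repressor (log2 difference 0.93, SE 0.08, limma adjusted p = 2.21e-04). Of these 6 rises 3 passed with total-read scaling. Among all listed genes 49.7% were higher, and the list was chosen with earlier results known. The call of MXD3 was lost without fasting replicate 1 or 2, or control replicate 1, 2 or 3 (limma adjusted p = 0.0592 to 0.0897, range over all alternatives 4.00e-07 to 0.0897).

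SMAD genes split by member. SMAD7 (ENSG00000101665), an inhibitor of TGF-beta and BMP receptors, had 173, 162 and 172 normalized counts in the fasting libraries, against 110.5, 112 and 95.9 in the control libraries, a modest rise (log2 difference 0.67, SE 0.12, limma adjusted p = 0.00773). With total-read scaling its call was lost (log2 difference 0.20). SMAD6 (ENSG00000137834), the inhibitor that acts mainly on BMP signals, had 5.08, 7.32 and 6.88 normalized counts in the fasting libraries, against 26.6, 24.2 and 14.5 in the control libraries. It fell (log2 difference -1.59, SE 0.29, limma adjusted p = 0.00792), at low counts, and the call was lost without control replicate 2 (limma adjusted p = 0.0505, range over all alternatives 9.31e-04 to 0.0505). SMAD5, which BMP receptors phosphorylate, averaged 948 ± 213 normalized counts in fasting medium and 1485 ± 33.8 in control medium (SD, n = 3 each, log2 difference -0.67, SE 0.16, limma adjusted p = 0.0331). Its call was lost without fasting replicate 1, or control replicate 1, 2 or 3 (limma adjusted p = 0.0525 to 0.139, range over all alternatives 1.02e-05 to 0.227), and without fasting replicate 3, its low library, the difference was -0.47.

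The SMAD6 promoter window (chr15:66701986-66702235, plus strand, GRCh38.p14) is shown because it held the SMAD-binding palindrome GTCTAGAC, in capitals, which begins 12 bases before the start. SMAD6 was the only one of 47 member windows with it (2.13%), against 0.202% of all windows. This motif too was singled out after the matches were seen, and a match is not evidence of binding.
SMAD6: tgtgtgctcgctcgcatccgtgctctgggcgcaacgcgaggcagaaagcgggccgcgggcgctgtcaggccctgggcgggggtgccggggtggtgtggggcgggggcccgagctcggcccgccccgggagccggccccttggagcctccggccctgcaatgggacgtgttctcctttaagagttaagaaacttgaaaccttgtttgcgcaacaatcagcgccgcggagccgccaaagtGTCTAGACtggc

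In the TGF-beta and BMP pathway 11 of 35 other genes were listed, 8 higher, 2 lower and LTBP1 not past the threshold (median 0.92). This list was chosen with earlier results known, and 49.7% of all listed genes were higher. TGIF1, a homeodomain corepressor of SMADs, averaged 1046 ± 52.4 normalized counts in fasting medium and 454 ± 9.77 in control medium (SD, n = 3 each, log2 difference 1.20, SE 0.08, limma adjusted p = 1.01e-04), and the BMP receptor gene ACVR1 664 ± 53.1 normalized counts in fasting medium and 350.1 ± 29.9 in control medium (SD, n = 3 each, log2 difference 0.92, SE 0.11, limma adjusted p = 9.89e-04). Other rises included BMP4, SKIL, INHBA, PMEPA1 and BAMBI, and TGFB3 and TGFBR3 fell. LTBP1 (log2 difference -0.82, SE 0.26, limma adjusted p = 0.118) passed without fasting replicate 3 (limma adjusted p = 0.00116, range over all alternatives 0.00116 to 0.397). The call of TGFB3 was lost without fasting replicate 1, or control replicate 1 or 3 (limma adjusted p = 0.0647 to 0.0897, range over all alternatives 0.00166 to 0.0897), that of BAMBI without fasting replicate 1 or 2, or control replicate 1 or 3 (limma adjusted p = 0.0609 to 0.0663, range over all alternatives 0.00142 to 0.834) and that of PMEPA1 without control replicate 2 or 3 (limma adjusted p = 0.0602 to 0.0609, range over all alternatives 0.00138 to 0.135). With total-read scaling 4 of the 8 rises passed, and that of ACVR1 (0.45) did not.

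HOX genes are arranged in 4 clusters and set position along the body axis, and the high-numbered ones stay on in the hindgut. Of 39 HOX genes 9 were listed, 4 of cluster A, 3 of B, 2 of D and none of the 9 in cluster C. In fasting medium 6 fell and 2 rose, where 44.6% of all listed genes were lower and 49.7% higher. The posterior genes HOXA13 and HOXB13 both fell. HOXA13 (ENSG00000106031) had 54.6, 61.7 and 52.3 normalized counts in the fasting libraries, against 133, 141 and 124 in the control libraries (log2 difference -1.22, SE 0.14, limma adjusted p = 7.64e-04), and HOXB13 (ENSG00000159184) had 86.3, 112 and 107 normalized counts in the fasting libraries, against 200.2, 225 and 253 in the control libraries (log2 difference -1.15, SE 0.15, limma adjusted p = 0.00166). In each, the highest fasting value stayed below the lowest control value, but the groups did not overlap in 100% of the listed genes. HOXB5 had 25.4, 33.5 and 31.6 normalized counts in the fasting libraries, against 58.2, 61.1 and 66.9 in the control libraries (log2 difference -1.02, SE 0.17, limma adjusted p = 0.00496).

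HOXA4 (ENSG00000197576) had few reads, 6.35, 6.28 and 8.25 normalized counts in the fasting libraries, against 19.7, 28.4 and 16.0 in the control libraries. Its log2 difference was the lowest of the HOX genes with a pseudocount of 1 (log2 difference -1.46, SE 0.27, limma adjusted p = 0.00848) but -0.87 with a pseudocount of 10, against -1.11 for HOXA13 and -1.08 for HOXB13. HOXD4 averaged 17.1 ± 5.49 normalized counts in fasting medium and 39.2 ± 2.37 in control medium (SD, n = 3 each, log2 difference -1.20, SE 0.26, limma adjusted p = 0.0191), and HOXD8 36.8, 56.5 and 46.8 normalized counts in the fasting libraries, against 86.8, 97.3 and 77.0 in the control libraries (log2 difference -0.90, SE 0.19, limma adjusted p = 0.0179). Fasting replicate 3 was the lowest library of HOXD4, whose difference without it was -0.93, and the call was lost without control replicate 1, 2 or 3 (limma adjusted p = 0.0666 to 0.0978, range over all alternatives 0.00224 to 0.0978). That of HOXD8 was lost without control replicate 1 or 2 (limma adjusted p = 0.0802 to 0.0987, range over all alternatives 0.00211 to 0.0987). HOXA9 (ENSG00000078399) had 297, 321 and 466 normalized counts in the fasting libraries, against 535, 547 and 520.4 in the control libraries, with fasting replicate 3 nearer to the controls (log2 difference -0.59, SE 0.17, limma adjusted p = 0.0711). Without that library it passed (log2 difference -0.79, limma adjusted p = 1.60e-06, over all alternatives 1.60e-06 to 0.350).

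HOXB9 (ENSG00000170689) rose, with 844, 878 and 887 normalized counts in the fasting libraries, against 544, 579 and 568 in the control libraries (log2 difference 0.62, SE 0.08, limma adjusted p = 0.00158). Its values were close together within each medium, but the call was lost with total-read scaling (log2 difference 0.15). HOX clusters hold antisense genes, and HOXA10-AS and HOXB-AS3, both in the table, have exons that overlap a listed HOX gene. HOXA10-AS, opposite HOXA9, had 10.2, 8.37 and 11.0 normalized counts in the fasting libraries, against 32.5, 35.5 and 27.6 in the control libraries (log2 difference -1.60, SE 0.21, limma adjusted p = 0.00156). HOXB-AS3, opposite HOXB5, had 43.2, 31.4 and 9.63 normalized counts in the fasting libraries, against 77.9, 74.6 and 85.0 in the control libraries, which did not pass (log2 difference -1.69, SE 0.47, limma adjusted p = 0.0665). Reads of such pairs cannot be told apart where counting ignores strand. Exons of 7 members, HOXA4, HOXA9 and HOXD4 among them, overlap another gene on the same strand, which counting by strand does not separate.

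**Figure D5:**
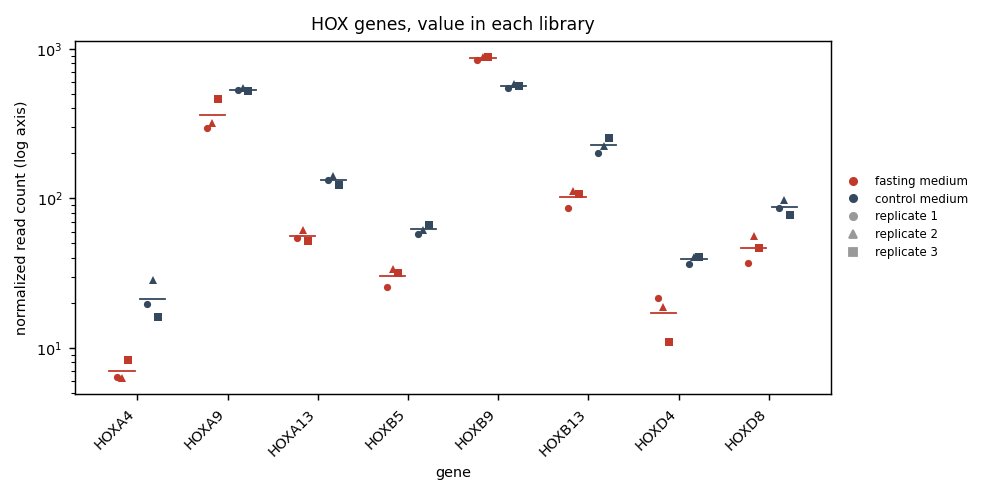
Normalized read counts (log axis) of 8 listed HOX genes in cluster order, one symbol per library, with a bar at each group mean. HOXB9 lies higher in the fasting libraries and the others lower, and fasting replicate 3 of HOXA9 (466) lies between the other fasting libraries and the controls.

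Other homeodomain families were represented by PAX2, POU2F2 and POU5F1B. PAX2 (ENSG00000075891), a kidney and eye factor, fell, with 87.6, 71.1 and 67.4 normalized counts in the fasting libraries, against 179, 199 and 158 in the control libraries (log2 difference -1.23, SE 0.15, limma adjusted p = 0.00134). POU2F2 (ENSG00000028277), the lymphoid factor Oct-2, had 20.3, 26.2 and 15.1 normalized counts in the fasting libraries, against 36.5, 46.9 and 50.1 in the control libraries (log2 difference -1.10, SE 0.24, limma adjusted p = 0.0203), and its call was lost without fasting replicate 1, or control replicate 2 or 3 (limma adjusted p = 0.0613 to 0.116, range over all alternatives 0.00238 to 0.116). POU5F1B (ENSG00000212993) had 12.7, 15.7 and 9.63 normalized counts in the fasting libraries, against 3.94, 2.84 and 3.63 in the control libraries (log2 difference 1.60, SE 0.28, limma adjusted p = 0.00612). With total-read scaling POU5F1B missed the threshold (log2 difference 1.42). It is a near-identical copy of POU5F1, which is not listed, so the division of reads between the pair is uncertain. Of 34 other homeobox genes 5 were listed, 4 higher, TGIF1 among them, and 1 lower. PKNOX1, a partner of HOX proteins, rose (log2 difference 0.94, SE 0.09, limma adjusted p = 4.36e-04).

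ETS factors, many of which respond to growth factor signals through ERK, had 6 of 17 listed, 4 higher and 2 lower. The shares of all listed genes were 49.7% and 44.6%. ETS2 (ENSG00000157557) rose, with 804, 756 and 802 normalized counts in the fasting libraries, against 402, 396 and 408 in the control libraries, with little spread in either medium (log2 difference 0.97, SE 0.08, limma adjusted p = 2.44e-04). This was the largest rise of the family with all libraries, but not without fasting replicate 3, where ETS2 had 0.95 and ETV3 1.097. ETV5, a target and effector of ERK signalling, averaged 2046 ± 27.9 normalized counts in fasting medium and 1290.3 ± 39.1 in control medium (SD, n = 3 each, log2 difference 0.66, SE 0.07, limma adjusted p = 7.84e-04). With total-read scaling the call of ETV5 was lost (log2 difference 0.19). Its close relative ETV1 (ENSG00000006468) fell, with 109, 119 and 85.3 normalized counts in the fasting libraries, against 262, 279.9 and 251 in the control libraries (log2 difference -1.34, SE 0.15, limma adjusted p = 7.71e-04). The repressors ETV3 and ETV6 moved in opposite directions, by 0.87 ± 0.18 and -0.67 ± 0.11 (SE, limma adjusted p = 0.0149 and 0.00536). ELF1 averaged 1484 ± 297 normalized counts in fasting medium and 926 ± 20.8 in control medium (SD, n = 3 each, log2 difference 0.66, SE 0.15, limma adjusted p = 0.0229). Fasting replicate 3 was the low one in both ETV3 and ELF1, and without it the differences were 1.097 and 0.84. The call of ETV3 was lost without fasting replicate 1 or 2, or control replicate 1, 2 or 3 (limma adjusted p = 0.0535 to 0.0820, range over all alternatives 1.22e-08 to 0.699) and that of ELF1 without fasting replicate 1 or 2, or control replicate 1, 2 or 3 (limma adjusted p = 0.0797 to 0.104, range over all alternatives 3.96e-08 to 1.00).

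GABPA was the only listed gene of 11 ETS factors in a further list (log2 difference 0.93, SE 0.10, limma adjusted p = 6.27e-04), and its rise did not pass with total-read scaling. That further list also held ELK1, which fits the naming pattern of the family but was not listed. ERK feedback genes had 4 of 11 listed, all higher (median 1.30), in a list chosen with earlier results of these data known. Among all listed genes 49.7% were higher. SPRY2, an inhibitor of receptor tyrosine kinase signals, averaged 1156 ± 48.6 normalized counts in fasting medium and 330.3 ± 29.01 in control medium (SD, n = 3 each, log2 difference 1.81, SE 0.10, limma adjusted p = 3.90e-05), and the ERK phosphatase gene DUSP5 4237 ± 231 normalized counts in fasting medium and 1552 ± 114 in control medium (SD, n = 3 each, log2 difference 1.45, SE 0.09, limma adjusted p = 5.90e-05).

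All 3 listed FOX genes, of 50 annotated, fell, as did 44.6% of all listed genes. FOXM1 (ENSG00000111206), an activator of genes of the G2 and M phases, had 642, 583 and 462 normalized counts in the fasting libraries, against 1676, 1616 and 1592 in the control libraries (log2 difference -1.54, SE 0.13, limma adjusted p = 2.04e-04). Its exons overlap ITFG2 on the opposite strand, which was higher in fasting medium (log2 difference 0.86, SE 0.15, limma adjusted p = 0.00563). FOXA1, a pioneer factor of endoderm, averaged 138 ± 13.9 normalized counts in fasting medium and 228 ± 26.3 in control medium (SD, n = 3 each, log2 difference -0.72, SE 0.14, limma adjusted p = 0.0105), and FOXO6 111 ± 7.55 normalized counts in fasting medium and 176 ± 18.0 in control medium (SD, n = 3 each, log2 difference -0.65, SE 0.13, limma adjusted p = 0.0121). The call of FOXA1 was lost without control replicate 1 or 2 (limma adjusted p = 0.0653 to 0.0656, range over all alternatives 3.64e-04 to 0.0656) and that of FOXO6 without control replicate 1 or 2 (limma adjusted p = 0.0731 to 0.0776, range over all alternatives 8.74e-04 to 0.0776). FOXO6 is the only FOXO gene in the table. Of 17 genes known as FOXO targets 9 were listed, 7 higher and 2 lower (median 1.37), with the smallest adjusted p for CCNG2 (log2 difference 1.36, SE 0.09, limma adjusted p = 7.32e-05) and GADD45A (log2 difference 1.97, SE 0.15, limma adjusted p = 1.37e-04), and PDK4 and TXNIP were the falls. These targets were chosen with earlier results of these data known, and 49.7% of all listed genes were higher. The call of PDK4 was lost without fasting replicate 1, or control replicate 1, 2 or 3 (limma adjusted p = 0.0806 to 0.160, range over all alternatives 0.00112 to 0.160).

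TCF19 (ENSG00000137310) is matched by name only: it encodes a chromatin-reader protein expressed as cells enter S phase, and no HMG-box TCF or LEF gene was listed. It had 344, 344 and 362 normalized counts in the fasting libraries, against 933, 930.0 and 1071 in the control libraries (log2 difference -1.48, SE 0.09, limma adjusted p = 7.16e-05). Its exons overlap POU5F1 on the opposite strand. SOX9 (ENSG00000125398), a crypt and cartilage factor, had few reads, 15.2, 10.5 and 15.1 normalized counts in the fasting libraries, against 32.5, 41.9 and 38.5 in the control libraries (log2 difference -1.42, SE 0.22, limma adjusted p = 0.00356), and SOX12, a SoxC factor, averaged 1914 ± 211 normalized counts in fasting medium and 2863 ± 212 in control medium (SD, n = 3 each, log2 difference -0.58, SE 0.11, limma adjusted p = 0.00789). The call of SOX12 was lost without control replicate 1 or 2 (limma adjusted p = 0.0521 to 0.0522, range over all alternatives 1.88e-06 to 0.0522). Genes of the Wnt pathway, in which TCF and LEF factors act, had 9 of 38 listed. None rose, 8 fell and APC did not pass (median -0.96). Among all listed genes 44.6% were lower, and this list was chosen with earlier results of these data known. APC (log2 difference -0.72, SE 0.21, limma adjusted p = 0.0773), the tumour suppressor of the pathway, passed without fasting replicate 3 (limma adjusted p = 1.93e-05, range over all alternatives 1.93e-05 to 0.388). LGR4, an R-spondin receptor, averaged 108 ± 17.7 normalized counts in fasting medium and 311 ± 15.0 in control medium (SD, n = 3 each, log2 difference -1.53, SE 0.14, limma adjusted p = 3.82e-04), and the Wnt receptor FZD1 98.99 ± 13.1 normalized counts in fasting medium and 263 ± 30.6 in control medium (SD, n = 3 each, log2 difference -1.40, SE 0.15, limma adjusted p = 6.43e-04). The call of NKD2 was lost with RLE scaling and without fasting replicate 1 or 2, or control replicate 1, 2 or 3 (limma adjusted p = 0.0682 to 0.0904, range over all alternatives 6.84e-07 to 0.0904).

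Single members stood for TBX, RUNX, MEF2 and NFAT. TBX3 (ENSG00000135111), a repressor in limb and breast development, had 932, 923 and 770.0 normalized counts in the fasting libraries, against 279, 297 and 268 in the control libraries (log2 difference 1.63, SE 0.11, limma adjusted p = 8.39e-05). MEF2D (ENSG00000116604), a muscle and neuron factor also made in many other cells, had 1627, 1684 and 1607 normalized counts in the fasting libraries, against 773, 818 and 821 in the control libraries (log2 difference 1.03, SE 0.08, limma adjusted p = 1.38e-04). RUNX1 (ENSG00000159216), a blood stem cell factor, had 1511, 1484 and 1295 normalized counts in the fasting libraries, against 987, 1015 and 938 in the control libraries (log2 difference 0.54, SE 0.09, limma adjusted p = 0.00542). With total-read scaling the call of RUNX1 was lost (log2 difference 0.08). NFATC1 (ENSG00000131196), which calcineurin activates, had 145, 138 and 122 normalized counts in the fasting libraries, against 188, 225 and 230.4 in the control libraries. It fell (log2 difference -0.66, SE 0.13, limma adjusted p = 0.0122), and its call was lost without control replicate 2 or 3 (limma adjusted p = 0.0749 to 0.0766, range over all alternatives 7.15e-04 to 0.0766). Of 19 genes of calcineurin and its regulation 8 were listed, 7 lower and RCAN1 higher (median -0.69). Among all listed genes 44.6% were lower, and this list was chosen with earlier results known. The call of PPP3CA was lost with RLE scaling (-0.46) and without control replicate 1 or 2 (limma adjusted p = 0.0891 to 0.0918, range over all alternatives 4.23e-04 to 0.0918), and that of STIM2 without control replicate 2 (limma adjusted p = 0.0530, range over all alternatives 4.21e-05 to 0.0530). AKAP5, an anchor for calcineurin, fell (log2 difference -2.49, SE 0.23, limma adjusted p = 3.78e-04). RCAN1, a calcineurin inhibitor that NFAT induces, rose (log2 difference 0.73, SE 0.08, limma adjusted p = 8.24e-04), a call lost with total-read scaling at 0.26.

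None of the 6 GATA, 4 TEAD and 6 IRX genes was listed. For TEAD factors, which act with YAP, the list of Hippo pathway and target genes had 6 of 21 in the table, 5 higher and AMOT lower (median 1.83). It was chosen with earlier results of these data known, and 49.7% of all listed genes were higher. The target CCN2 averaged 293 ± 22.7 normalized counts in fasting medium and 46.7 ± 3.48 in control medium (SD, n = 3 each, log2 difference 2.63, SE 0.13, limma adjusted p = 2.50e-05), and CCN1 3639 ± 187 normalized counts in fasting medium and 1289 ± 108 in control medium (SD, n = 3 each, log2 difference 1.499, SE 0.09, limma adjusted p = 5.98e-05). The kinase gene LATS2 was higher too, but its call was lost with total-read scaling and without fasting replicate 1 or 2, or control replicate 1, 2 or 3 (limma adjusted p = 0.0624 to 0.0769, range over all alternatives 2.59e-09 to 0.596).

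Levels between members were compared as normalized counts per kilobase of the longest protein-coding transcript, which assumes that this transcript is the one made. Fasting means include fasting replicate 3, which stood apart by transcript length, and its part in these ranks was not tested. CEBPB was the highest member by this measure in fasting medium, at a mean of 2272 per kilobase, and 518 in control medium. HES6, at 526 in fasting medium and 925 in control medium, and TCF3, at 424 in fasting medium and 665 in control medium, led in control medium. CEBPG reached 585 per kilobase in fasting medium, against 194 in control medium. HOXB9 was the highest listed HOX gene in fasting medium, at 337 per kilobase against 218 in control medium, where HOXA9, at 175 in fasting medium and 259 in control medium, was higher. NR3C2 was the lowest member in fasting medium, at 0.339 per kilobase, and POU5F1B in control medium, at 0.729.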

How the data were processed

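RNA-seq libraries of RKO cells in fasting medium (3) and control medium (3) were analysed. The authors deposited normalized counts per gene, a signal equal to reads divided by a size factor for each library. The table gives the authors' log2 fold changes and adjusted p-values beside them, and holds 3511 genes with adjusted p under 0.05. Per the submitters' processing notes, the tools were DESeq 1.10.1, HTSeq 0.6.1 and UMI-tools 1.0.0. No aligner, genome build or strand setting was stated, and each is not given in the sources used here. Dividing each library by the value of 1 read gave whole reads, within 0.01 read, for 100% of values.

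Genes that averaged at least 1 normalized count in either medium were tested on log2(normalized count + 1) with limma 3.58.1 (R 4.3.3), using empirical Bayes moderation with an intensity trend, 2-sided. The moderation rests on the listed genes alone. Benjamini-Hochberg adjustment ran over 29845 genes, counting unlisted genes as not significant (limma). On the recovered reads edgeR 4.0.16 called 1752 listed genes higher and 1607 lower. DESeq2 1.42.0, other scalings, pseudocounts, filters and left-out libraries were further alternatives. Members, families and gene lists were chosen with earlier results of these data known. Members are named with their values, though some genes that these counts hold are not reported here. Of each list the 2 genes with the smallest adjusted p are named, and further genes only to account for small counts or lost calls, after their values were seen. RefSeq promoter windows (GRCh38.p14) were matched by symbol for 47 of 59 members. For a member the first window found was kept, whichever start it belongs to. Shares over all windows count every window, and a gene can have several.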

Additional observations from a re-analysis of the deposited data

How the results depend on the processing

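Of the 59 members, 31 kept their call under each of the 17 alternatives that gave them a value, and none changed direction under any. With edgeR scaled by the reads summed over the table, 13 members were called higher against 28, and 879 listed genes against 1745. Leaving out each library in turn gave 22 to 28 members higher and 20 to 31 lower, and 1464 to 1762 listed genes higher and 1160 to 1747 lower. Pseudocounts of 0.5 and 10, no filter and edgeR with the deposited size factors changed no member's call. A minimum mean of 50 left 7 members untested and changed none of the other 52 calls. TMM, DESeq2 and adjustment over listed genes each added 1 call, that of HOXA9. The cause of these shifts was not tested.

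With a replicate block 27 members were higher and 29 lower, and 1715 listed genes higher and 1578 lower. The members lost were HES1 and HES6. Same-numbered fasting and control libraries deviated together by correlations of 0.031, 0.032 and 0.084 over 2785 genes, all under 0.1, so the numbers were not taken as pairs.

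Only called genes are in the table, so no statement covers unlisted family members. At 1.38 to 2.54 normalized counts in fasting medium (NR3C2), precision is limited by reads.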
